A study of Bos taurus with 30 samples.

Results

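MEG3 and 9 further imprinted genes were followed through the RNA-seq counts of day 15 bovine conceptuses. The genes were taken as the rows of the count table whose Entrez identifiers carry the cattle symbols MEG3, DLK1, H19, IGF2, IGF2R, PEG3, PEG10, CDKN1C, PHLDA2 and PLAGL1. All 10 were found among 35092 rows. The set was selected on count values of these same libraries, and which comparison was used is not recorded. MEG3, which gave the set its name, is described by its levels and fold changes without a test. The other 9 are tested, and their p-values are not free of that choice. A further 42 imprinted genes were listed, of which 39 had a row and 5 of those (NNAT, NAP1L5, SNURF, AIRN and APEG3) held no count in any library.

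The conceptuses were Holstein embryos recovered on day 15. In vitro produced (IVP) embryos came from slaughterhouse oocytes matured, fertilized and cultured without serum, moved to recipient cows on day 7 and flushed 8 days later. In vivo (IVV) embryos came from superovulated, inseminated donors, and semen of 1 bull was used for both procedures. The recipients were 2 cows and the donors were 2 cows, so effects of procedure and of cow cannot be told apart. Embryos in which no embryonic disc was seen had been discarded, and the IVP embryos were the shorter ones. Each embryo was cut to give the embryonic disc (ED), which forms the fetus, and pieces of the surrounding extra-embryonic membranes (EEM), which form the placenta. The 30 libraries came from 17 embryos. ED libraries came from 7 IVP and 9 IVV embryos, EEM libraries from 6 of the former and 8 of the latter procedure, and 13 embryos (5 IVP and 8 IVV) gave both tissues.

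Imprinted genes are expressed mostly from the maternal or from the paternal copy, according to DNA methylation marks laid down in the germ cells. Many of them sit in clusters under 1 control region, and in ruminants their disturbance has been tied to embryo culture and to fetal overgrowth. MEG3 is a long non-coding RNA made from the maternal copy of the DLK1-DIO3 domain, whose paternal copy makes the proteins DLK1, RTL1 and DIO3 instead. H19 and the growth factor IGF2 form a similar pair, with H19 maternal and IGF2 paternal, and IGF2R removes IGF2 from the cell surface. The counts do not separate the parental copies. No sequence is shown, because the values are gene counts and no sequence of these genes was used here.

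Library totals ran from 48713218 to 63037371 counts and no pair of libraries was identical. Levels are CPM (counts scaled to a common library size by the TMM method), and a gene is compared with itself only, since CPM take no account of gene length. The tissue labels were checked against marker genes. NANOG, an epiblast factor, had a median of 6.86 CPM in IVP and 12.8 CPM in IVV ED, and at most 10 counts in any EEM library. TBXT, a factor of the primitive streak, was at 0 in all 14 EEM libraries. SOX2, another epiblast factor, was at 0 in all 30 libraries. The 8 trophoblast markers summed to between 5166 and 34827 CPM in ED libraries and between 11889 and 35387 CPM in EEM libraries, so the ED libraries also carried RNA typical of the membranes. Markers of maternal blood summed to at most 3.73 CPM and those of endometrium to at most 24.1 CPM in any library.

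In the EEM, MEG3 was present in every IVP library and much lower in the IVV libraries. The 6 IVP libraries held between 4.71 and 11.6 CPM, with a median of 7.50 CPM (8.19 ± 2.69, mean ± SD). The 8 IVV libraries held between 0.0537 and 2.14 CPM, with a median of 0.415 CPM (0.637 ± 0.685). The groups did not overlap: the lowest IVP library (IVPF14, 235 counts) lay above the highest IVV library (VE19, 100 counts), and the lowest IVV library (VE3) held 3 counts. The fitted log2 fold change, IVP over IVV, was 4.03 with a standard error of 0.45, a 16.3-fold higher level in IVP. Leaving out each embryo in turn moved it between 3.78 and 4.59. Titles of IVP embryos begin with IVP or with IVPF, which the labels do not explain, and both kinds lay above all IVV libraries, with 6.68 to 11.2 CPM in the first 3 and 4.71 to 11.6 CPM in the other 3.

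In the ED the groups overlapped. MEG3 ran from 5.55 to 18.1 CPM in the 7 IVP libraries (median 10.1) and from 2.61 to 43.4 CPM in the 9 IVV libraries (median 11.2). VE5 was the highest IVV library and VE4 the lowest. The log2 fold change of MEG3 in the ED was -0.50 with a standard error of 0.43, and it took values from -0.71 to 0.18 when single embryos were left out, turning positive in part of these fits. Of the 4 groups, the IVV membranes were the one with little MEG3.

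**Figure D1:**
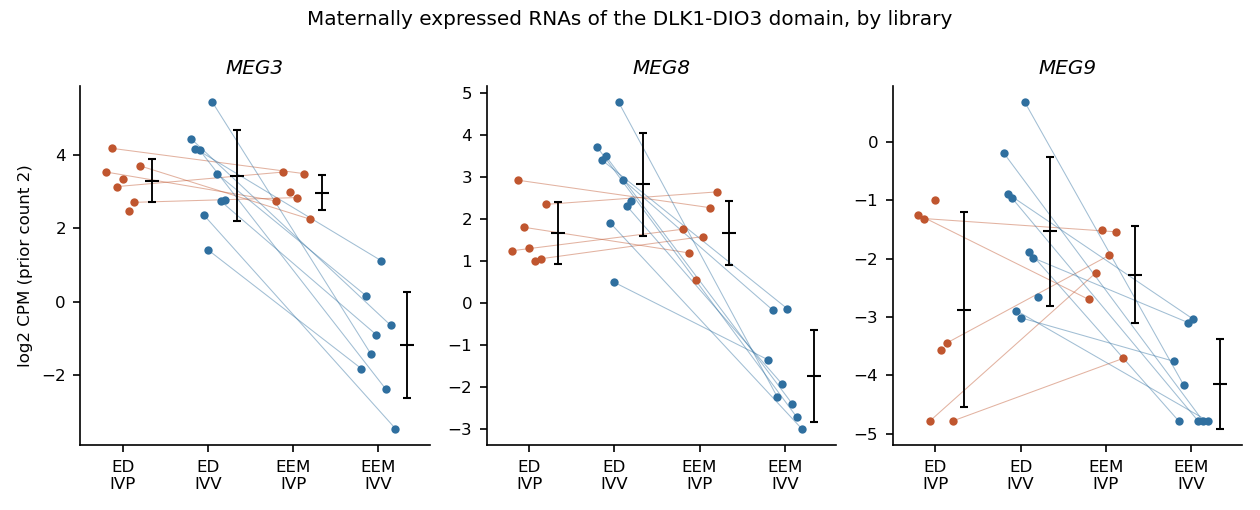
Levels of MEG3, MEG8 and MEG9 in each library, as log2 CPM with a prior count of 2. Points are libraries (IVP orange, IVV blue), black bars are the mean and SD of the group, and lines join ED and EEM of the same embryo. The 8 IVV lines fall from ED to EEM for MEG3 and MEG8, least for MEG8 in VE4, and for each of these genes the 5 IVP lines fall less or rise.

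The same contrast was seen within embryos. In the 8 IVV embryos with both tissues, the ED level of MEG3 was between 8.43 and 131 times the EEM level, with a median ratio of 24.7. In the 5 IVP embryos it was between 0.759 and 2.76 times, with a median ratio of 1.62. No IVP embryo reached the lowest ratio of the IVV embryos. In the fit with embryo as a block, the log2 difference of ED over EEM for MEG3 was 4.68 (standard error 0.44) in IVV and 0.45 (standard error 0.45) in IVP embryos, and the difference between these was -4.23 (standard error 0.63).

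Marker genes of the disc and of other cells were compared in the same membranes. In EEM libraries POU5F1, the pluripotency factor, had a median of 1.59 CPM in IVP and 1.22 CPM in IVV, against 29.3 and 68.7 CPM in the ED. Its log2 fold change in the EEM was 0.56 with a standard error of 0.32 (adjusted p = 0.50). NANOG held at most 3 counts in any IVP library of the EEM and at most 10 in any IVV library. Over all genes tested in the EEM, 3.81% passed the threshold, and 2.29% passed it and were higher in IVP. Of the epiblast markers, 3 were tested in the EEM and 1 was up-regulated in IVP, LIN28B, an RNA-binding protein (log2 fold change 1.10, standard error 0.27, adjusted p = 0.0159). The summed epiblast list ran from 36.3 to 127 CPM in IVP and from 43.3 to 113 CPM in IVV membranes, mostly from TDGF1, which was not higher in the ED. Of the 4 epiblast markers fitted between the tissues, 3 were higher and 1 was lower in the ED, in each procedure. Of the hypoblast markers, TTR, a transport protein of the yolk sac endoderm, held 0 to 1 count per library in IVP and 0 to 224 in IVV (adjusted p = 3.2e-05), and it entered the test only through the IVV libraries. The other 6 hypoblast markers tested and all 8 trophoblast markers did not pass the threshold in the EEM. Of 6 mesoderm markers tested, 1 passed the threshold, SNAI2, with 0 to 9 counts in IVP and 7 to 56 in IVV (log2 fold change -2.17, standard error 0.58, adjusted p = 0.0333), and it too was tested through the IVV libraries. The endometrium markers summed to between 9.39 and 22.9 CPM in IVP and between 4.07 and 14 CPM in IVV membranes, and the blood markers to between 0.876 and 3.67 CPM and between 0.304 and 1.94 CPM. The 3 endometrium markers tested had positive log2 fold changes (median 0.90), of which edgeR and limma voom called 0 and DESeq2 called 1, with 1 at an unadjusted p under 0.05 (MUC1, 0.90 with an adjusted p of 0.0729). The 1 blood marker tested, CD14, was at 1.06 (standard error 0.36, adjusted p = 0.114). The part of these cell types in the MEG3 result was not tested. In whole pieces of tissue, fewer cells of a kind and less RNA in each cell cannot be told apart.

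MEG8 and MEG9 are further maternal non-coding RNAs of the domain. MEG8, a host transcript of small nucleolar RNAs, ran from 1.42 to 6.21 CPM in IVP and from 0.0895 to 0.876 CPM in IVV membranes, without overlap. Its log2 fold change was 3.38 with a standard error of 0.48, a 10.4-fold higher level in IVP (edgeR, adjusted p = 0.00010). MEG8 passed the filter on low counts through the IVP libraries, since 4 of the 8 IVV libraries held under 10 counts, and with no filter its log2 fold change was 3.36 (standard error 0.46). That the groups did not overlap was true of 0.897% of the 14718 genes tested in the EEM. MEG9 was too low to be tested there. It had a median of 9.5 counts in IVP (2 to 18) and of 0.5 counts in IVV membranes (0 to 5).

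In the ED, MEG8 ran from 1.96 to 7.54 CPM in IVP and from 1.37 to 27.3 CPM in IVV. The fold change on the log2 scale, -1.45 with a standard error of 0.46 (adjusted p = 0.0621), missed the threshold of 0.05. Leaving out IVP14, VE24, VE3 or VE4 brought it below the threshold, at adjusted p from 0.0145 to 0.0471, and leaving out VE5 moved MEG8 to -0.81 (adjusted p = 0.352). It also passed with no surrogate variable (-1.45, adjusted p = 0.0381) and with no filter on low counts (-1.45, adjusted p = 0.0406). In IVV embryos MEG8 was 25.3-fold higher in the ED than in the EEM (adjusted p = 6.36e-07), and in IVP embryos the log2 difference was -0.05 with a standard error of 0.49 (adjusted p = 0.978). The difference between these tissue effects was itself past the threshold, at -4.71 with a standard error of 0.69 (adjusted p = 0.00137). It was no longer so without the 3 embryos titled IVP but not IVPF, at -4.50 with an adjusted p of 0.0761.

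The paternal genes of the domain were at or near the floor. DLK1 held 0 to 13 counts in IVP and 0 to 5 counts in IVV membranes, and was not tested there. RTL1, a protein derived from a retrotransposon, held at most 22 counts in any library and at most 3 in the membranes. DIO3, which inactivates thyroid hormone, held at most 15 counts in any library and at most 2 in the membranes. Libraries were not stranded, so reads of RTL1 and of the RNA antisense to it cannot be told apart. Differences of a few counts between the membranes of the procedures could not be resolved for these genes.

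The remaining rows of the domain were examined by their order on the chromosome, a choice made after the data had been seen. Between DLK1 and DIO3 the RefSeq annotation of ARS-UCD2.0 places 103 rows of the count table, counting both ends. Only 14 of them had a count in any library and 10 rose above 3 counts. Of the 103 rows, 56 are microRNA and 33 small nucleolar RNA rows, and 6 of these held a count, of at most 11 in any library. The libraries were poly(A)-selected, so counts in these rows are no measure of the small RNAs. Only MEG3 and MEG8 could be fitted in the EEM. Outside the domain, the 6 nearest genes that could be fitted in the EEM were taken, and rows too low for the fit were passed over. All 6 are protein-coding, among them SLC25A29, WARS1 and WDR25 on the DLK1 side and PPP2R5C and DYNC1H1 on the DIO3 side. Their log2 fold changes were between -0.13 and 0.35 in the EEM and between -0.35 and 0.42 in the ED. None of these passed the threshold, the smallest adjusted p being 0.334 for the disc and 0.667 for the membranes.

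**Figure D2:**
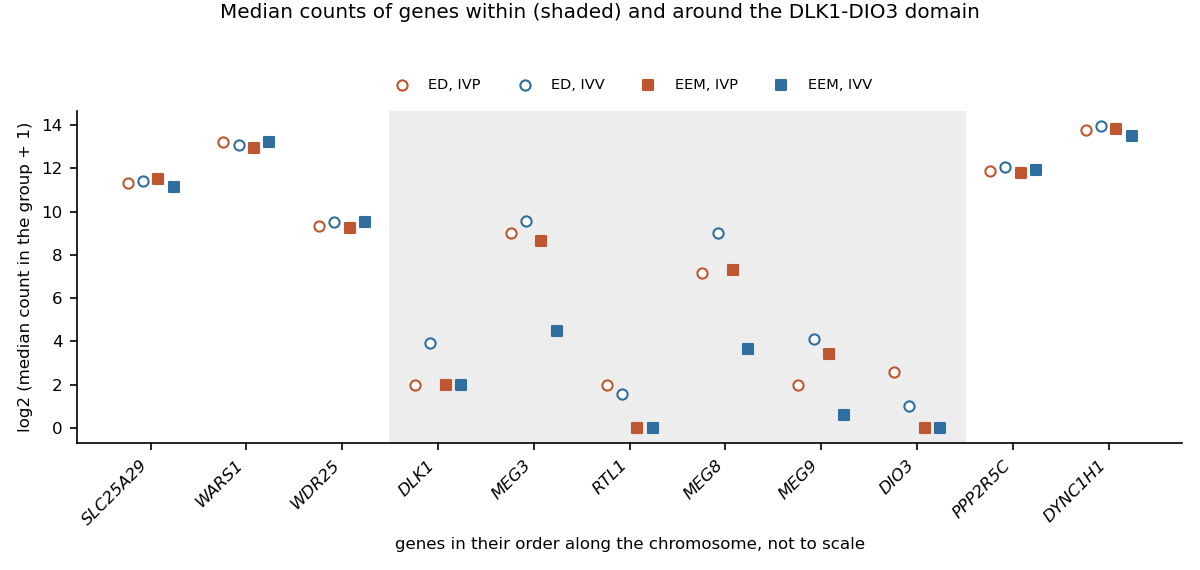
Median counts of 11 genes in and around the DLK1-DIO3 domain, in their order along the chromosome (not to scale), as log2 of the median plus 1. Open circles are ED and filled squares are EEM, IVP in orange and IVV in blue; within the shaded domain the IVV membranes lie lowest for MEG3 (21.5 counts), MEG8 (11.5 counts) and MEG9 (0.5 counts), while the 5 flanking genes shown have similar medians in all groups.

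Genes with a pattern like that of MEG3 were ranked by Spearman correlation of log2 CPM over the libraries of each tissue, as a description. Over the 16 ED libraries the closest were ZIC5 (0.906), SCN8A (0.897), SYN1 (0.897), PTPRZ1 (0.888) and ALPL (0.885). Within the 9 IVV discs alone, the values of these 5 genes were between 0.867 and 0.967, and within the 7 IVP discs between 0.643 for PTPRZ1 and 0.929 for SYN1. Over the 14 EEM libraries they were ZSWIM1 (0.921), CYP2C87 (0.916), APC2 (0.908), ZNF300 (0.903) and ESYT3 (0.890). These were computed across libraries of both procedures. Within the 6 IVP membranes alone the values were between 0.0857 for ESYT3 and 0.886 for ZNF300, and within the 8 IVV membranes between 0.595 for ZNF300 and 0.857 for APC2.

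Among the other 9 imprinted genes, IGF2 was lower in the ED of IVP embryos. DLK1 passed the threshold too, but it entered the test only through the IVV libraries, where it was the higher. With it, 2 of the 9 tested passed, where 6.34% of all 15733 genes tested in the ED passed the threshold and 4.95% were lower in IVP. No gene was up-regulated. The median log2 fold change of the 9, DLK1 included, was -0.84, against -0.0079 over all genes tested. None of the 9 had groups that did not overlap, which held for 0.858% of all genes.

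DLK1, a membrane protein that holds back differentiation, was close to the floor in the ED too. The 7 IVP libraries held 0 to 7 counts (median 3) and the 9 IVV libraries 7 to 34 counts (median 14). The groups touched at 7 counts. The fitted log2 fold change was -2.15 with a standard error of 0.59 (adjusted p = 0.0289), and -2.15 with no filter on low counts (standard error 0.65, adjusted p = 0.0409). Its size rests on an IVP group near the floor, with 2 of 7 libraries at 0. DLK1 passed the filter only through the IVV libraries, so this call is no independent support for a lower level, and in 7 of the 16 fits that left out an embryo it was filtered out. Of the other 9, it missed the threshold only without IVPF14 (adjusted p = 0.0599). It also missed it with the title letter as a term, without the embryos titled IVPF and without those titled IVP but not IVPF, at log2 fold changes of -2.12, -2.53 and -1.99 (adjusted p = 0.0567, 0.158 and 0.108).

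IGF2, the main growth factor of the fetus, ran from 5.89 to 23.8 CPM in IVP discs (median 9.55) and from 7.34 to 66.2 CPM in IVV discs (median 26.3). The lowest IVV library was VE19 and the highest VE6. The log2 fold change was -1.19 with a standard error of 0.35, a 2.29-fold lower level in IVP (adjusted p = 0.0436). This call stood close to the threshold. It was lost without IVP10, IVP11, IVPF10, IVPF13, IVPF14, VE26, VE28, VE29 or VE6, at log2 fold changes from -0.98 to -1.15 and adjusted p from 0.0666 to 0.102. It was also lost with 0 or 2 surrogate variables in place of 1, at -1.07 and -1.05 (adjusted p = 0.0917 and 0.0916), and with limma voom at -1.11 (adjusted p = 0.0826). With the title letter as a term it was -0.996 (adjusted p = 0.0698), without the embryos titled IVPF -0.90 (adjusted p = 0.405) and without those titled IVP but not IVPF -1.17 (adjusted p = 0.0824). The direction was the same in each of these fits.

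The receptor IGF2R had positive log2 fold changes in both tissues that did not pass the threshold. It ran from 66.8 to 216 CPM in IVP and from 62.6 to 119 CPM in IVV discs (log2 fold change 0.50, standard error 0.18, adjusted p = 0.121). In the membranes it ran from 64.7 to 152 CPM in IVP and from 50.9 to 105 CPM in IVV (0.52, standard error 0.21, adjusted p = 0.206). The embryo IVP11 was lowest among IVP in both tissues. Without IVP11 the ED value was 0.73 (adjusted p = 0.0228). AIRN, the non-coding RNA that runs antisense to IGF2R, was at 0 in every library.

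H19, a maternal non-coding RNA, varied widely between embryos of each procedure. In the ED it ran from 0 to 20.4 CPM in IVP (median 3.26) and from 0.101 to 43.0 CPM in IVV (median 14 CPM). The log2 fold change was -1.49 with a standard error of 0.81 (adjusted p = 0.351). Without the embryos titled IVP but not IVPF, H19 was at -3.67 and passed the threshold (adjusted p = 0.0420), as the only one of the 9 genes, and 2 of the 4 IVP discs left there held 0 counts. In the EEM it ran from 0 to 3.47 CPM in IVP and from 0.0641 to 6.25 CPM in IVV, at -0.19 with a standard error of 0.60 (adjusted p = 0.988). The embryo IVPF14 held 0 counts of H19 in both tissues, which allows up to 3 counts by counting error. VE19 held 5 counts in its ED and 3 in its EEM, where IGF2 had 364 and 399 counts. IVPF13 held 0 counts in its ED and 159 in its EEM. The other 14 embryos held at least 57 counts in each tissue sequenced.

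Among genes that restrain growth, PHLDA2, which limits the size of the placenta, had negative log2 fold changes in both tissues that did not pass the threshold. It ran from 0.270 to 2.14 CPM in IVP and from 0.538 to 6.69 CPM in IVV discs (log2 fold change -1.27, standard error 0.50, adjusted p = 0.151). In the membranes it ran from 0.401 to 1.94 CPM in IVP and from 1.09 to 4.27 CPM in IVV (-0.97, standard error 0.31, adjusted p = 0.0828). The value in the EEM passed with DESeq2 (-0.96, adjusted p = 0.0226), and that in the ED passed without IVP11 (-1.63, adjusted p = 0.0408). CDKN1C, an inhibitor of the cell cycle, ran from 3.74 to 33.9 CPM in IVP and from 1.59 to 26.5 CPM in IVV discs. Its log2 fold change was 0.21 in the ED and 0.19 in the EEM, with intervals of 2 standard errors from -0.70 to 1.11 and from -0.80 to 1.18. VE19 had the lowest level of CDKN1C among IVV embryos in both tissues (79 and 88 counts).

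The zinc finger genes PEG3 and PLAGL1 and the retrotransposon-derived PEG10 did not pass the threshold. PEG3 ran from 39.2 to 121 CPM in IVP and from 57.3 to 188 CPM in IVV discs, with a log2 fold change of -0.60 in the ED (adjusted p = 0.166) and -0.69 in the EEM (adjusted p = 0.228). PEG10, which the trophoblast needs, ran from 11.5 to 48.5 CPM in IVP and from 4.96 to 75.7 CPM in IVV discs. The log2 fold changes of PEG10 were -0.41 (ED) and -0.21 (EEM), with intervals of 2 standard errors from -1.05 to 0.24 and from -0.83 to 0.41. PLAGL1 was low, at 3 to 129 counts in the ED and 1 to 71 counts in the EEM. Its log2 fold change was -0.84 in the ED (adjusted p = 0.355) and 0.84 in the EEM (adjusted p = 0.603).

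**Figure D3:**
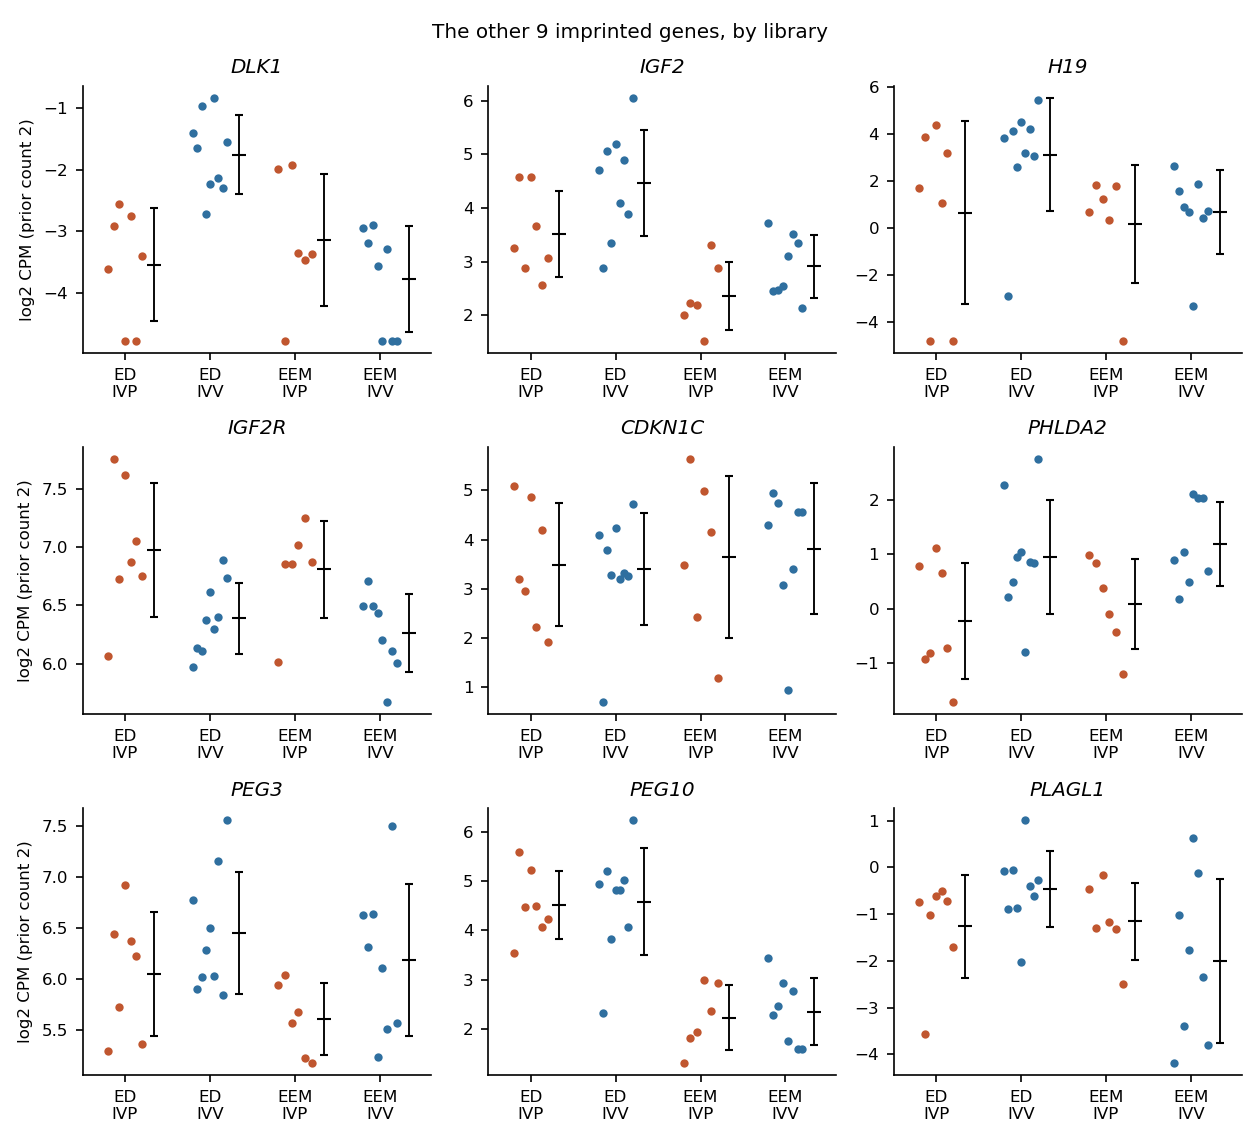
Levels of the 9 imprinted genes other than MEG3 in each library, as log2 CPM with a prior count of 2 (IVP orange, IVV blue, black bars mean and SD of the group). The groups overlap in every panel. Low values are seen for H19 in both tissues of VE19 and IVPF14 and in the ED alone of IVPF13. For CDKN1C they are seen in VE19 and, in the EEM, IVPF14.

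In the EEM, 8 of these 9 genes were tested with edgeR and 0 passed the threshold, where 3.81% of all genes did. At an unadjusted p under 0.05 there were 3 (IGF2R, PEG3 and PHLDA2). DESeq2 called 1 (PHLDA2) and limma voom 0. IGF2 ran from 2.83 to 9.84 CPM in IVP and from 4.33 to 13.1 CPM in IVV membranes (log2 fold change -0.50, standard error 0.31, adjusted p = 0.578). The median log2 fold change of the 8 was -0.20.

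Marker genes of other cells also differed between IVP and IVV discs. Over all genes tested in the ED, 6.34% passed the threshold, and 4.95% passed it and were lower in IVP. In IVP discs 8 of 10 gastrulation mesoderm markers were lower, among them TBXT, MIXL1 and KDR, with a median log2 fold change of -2.62 over the 10. Their sum ran from 16.9 to 79.2 CPM in IVP and from 53.6 to 128 CPM in IVV discs. POU5F1 was lower as well (log2 fold change -1.72, standard error 0.36, adjusted p = 0.00479). The 8 trophoblast markers did not pass the threshold with edgeR, and limma voom called 1. Of these 8, 7 had positive log2 fold changes (median of the 8 0.34). The 1 blood marker tested, CD14, was at 0.99, with an unadjusted p under 0.05 by edgeR, and DESeq2 called it. Of 5 endometrium markers tested, 1 was higher in IVP discs, MUC1, an epithelial mucin (log2 fold change 1.10, standard error 0.27, adjusted p = 0.0162), and DESeq2 and limma voom called 2 each. The endometrium markers summed to a median of 14.8 CPM in IVP (4.59 to 24.1) and 7.67 CPM in IVV discs (6.30 to 13.1). The part of these shifts in the values of DLK1, IGF2 and MEG8 in the ED was not tested.

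**Figure D4:**
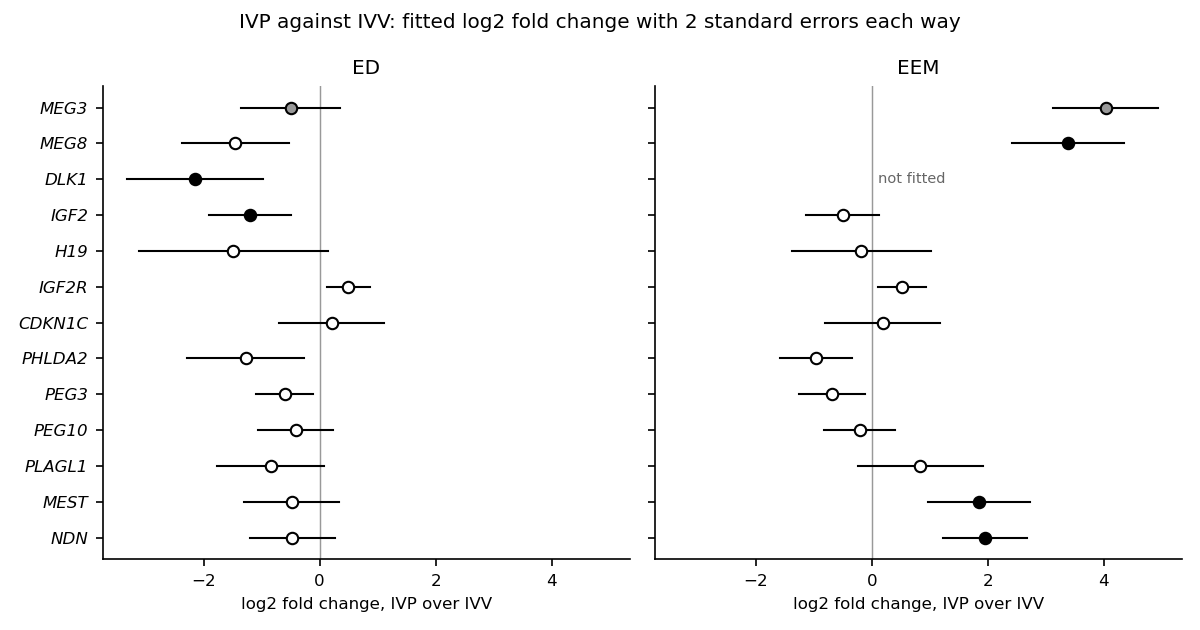
Log2 fold changes, IVP over IVV, of the 10 genes and of MEG8, MEST and NDN in the ED (left) and the EEM (right), with bars of 2 standard errors each way. Black points passed an adjusted p of 0.05, open points did not, and MEG3 (grey) was not tested. DLK1 was not fitted in the EEM. MEG3, MEG8, MEST and NDN lie above 0 in the EEM, as do IGF2R, PLAGL1 and CDKN1C, which did not pass. The ED values of MEG3, MEG8, MEST and NDN lie below 0 and did not pass or were not tested.

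Of the wider imprinted list, 24 genes were tested in the ED and 0 passed the threshold with edgeR, DESeq2 or limma voom, with 1 (MEG8) at an unadjusted p under 0.05, where 6.34% of all genes passed with edgeR. In the EEM, 21 were tested and 3 were up-regulated in IVP, namely MEG8, NDN and MEST, where 2.29% of all genes were. MEG8 is counted here although it was tested through the IVP libraries, where it was the higher. No gene was down-regulated. The median log2 fold change of the 21 was 0.051, so the list as a whole stood near the median of all genes. MEST is close to a hydrolase in sequence and NDN is a growth suppressor of postmitotic neurons, and both are expressed from the paternal copy.

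NDN ran from 1.20 to 2.7 CPM in IVP and from 0.131 to 0.853 CPM in IVV membranes, and the groups did not overlap. The log2 fold change was 1.96 with a standard error of 0.36, a 3.88-fold higher level (adjusted p = 0.00163). In the ED it was -0.47 with a standard error of 0.37 (adjusted p = 0.579). MEST ran from 0.713 to 3.3 CPM in IVP and from 0.0939 to 3.03 CPM in IVV membranes. VE19 was the highest of the IVV libraries and the other 7 held at most 1.11 CPM. The log2 fold change was 1.84 with a standard error of 0.44 (adjusted p = 0.0138), and without a surrogate variable it was 1.21 (adjusted p = 0.378). Without the 3 embryos titled IVP but not IVPF, it was 2.13 for MEST (adjusted p = 0.108) and 1.98 for NDN (adjusted p = 0.0666).

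Genes that keep imprints in the early embryo were listed as well. Of the 7, 5 were tested in each tissue (ZFP57, ZNF445, TRIM28, CTCF and SMCHD1) and edgeR called 0, where it called 6.34% of all genes in the ED and 3.81% in the EEM, so a count of 0 of 5 is near the background. At an unadjusted p under 0.05 there was 1 in the disc and 0 in the membranes. The 1 was ZFP57, a zinc finger protein that guards methylated imprints (log2 fold change 0.88, standard error 0.28, adjusted p = 0.0630), which DESeq2 called, while limma voom called 0. Of 6 genes of IGF2 signalling and IGF2 RNA binding, 5 were tested and edgeR called 0 in either tissue. IGF2BP2, which binds IGF2 RNA, was the 1 at an unadjusted p under 0.05, at -1.02 with a standard error of 0.31 in the ED (adjusted p = 0.0527), and was called by DESeq2 only.

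Between the tissues of the same embryo, several imprinted genes were higher in the disc. In IVV embryos 4 of the 9 passed the threshold, all higher in the ED, where 22.1% of the 16784 genes tested passed and 15.6% were higher in the ED. The 4 were PEG10 (4.14-fold, adjusted p = 2.14e-05), IGF2 (2.60-fold, adjusted p = 5.17e-05), H19 (5.03-fold, adjusted p = 0.00439) and DLK1 (adjusted p = 0.0125). DLK1 held 0 to 5 counts in the IVV membranes and was again tested through the discs, where it was the higher. H19 lost its call without the replicate block, that is, without pairing the tissues by embryo (log2 difference 2.32, adjusted p = 0.0629). IGF2R, PEG3, CDKN1C and PHLDA2 were within 0.58 of equal levels on the log2 scale and did not pass. PLAGL1 was at 1.56 (adjusted p = 0.0699). It passed without VE19 (2.04, adjusted p = 0.0140), with DESeq2 (1.76, adjusted p = 0.0108) and with no filter on low counts (1.55, adjusted p = 0.0382).

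In IVP embryos 1 of the 9 passed, PEG10, which was 4.21-fold higher in the ED (adjusted p = 0.00141), where 4.83% of all genes passed and 4.18% were higher in the ED. IGF2 was at 0.85 on the log2 scale (standard error 0.26, adjusted p = 0.0671), and passed without IVPF14, VE19 or VE26, at 0.85 to 1.05 (adjusted p from 0.0125 to 0.0460), with DESeq2 (0.90, adjusted p = 0.0201) and with no filter (0.89, adjusted p = 0.0262). H19 was at 0.90 (standard error 0.88, adjusted p = 0.671) and passed without IVPF13 at 1.95 (adjusted p = 0.00456), the embryo with H19 in the EEM alone, and without all embryos titled IVPF at 1.98 (adjusted p = 0.00714). PEG10 missed the threshold without the embryos titled IVP but not IVPF (1.98, adjusted p = 0.0981). Its ratios of ED to EEM ran from 1.5 to 10.4 in the 8 IVV embryos and from 2.13 to 9.50 in the 5 IVP embryos.

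The difference of the tissue effects between procedures was tested directly. Of the 9 genes, 0 passed with edgeR, DESeq2 or limma voom, where 1.02% of all genes passed, and 1 was at an unadjusted p under 0.05 (DLK1, at -2.78 with a standard error of 1.23, adjusted p = 0.423). Of the wider list of 24, edgeR called 2, DESeq2 4 and limma voom 3. The 2 called by edgeR both had a smaller ED excess in IVP, where 0.918% of all genes did. These were MEG8, given above, and NDN, at -2.06 with a standard error of 0.47 (adjusted p = 0.0377). NDN missed the threshold without IVP10, IVP11, IVP14, IVPF14, VE26, VE28, VE29, VE4 or VE5, at -1.88 to -2.12 and adjusted p from 0.0524 to 0.111. The tissue and procedure comparisons share libraries, so the directions of MEG8 and NDN in them are not independent results.

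In IVV embryos the wider list was split by tissue. Of 24 tested, 8 were higher in the ED, led by MEG8 and with NDN (7.90-fold), MEST (5.31-fold) and MEG9, and 3 were lower (DLX5, INPP5F and ASCL2), where 22.1% of all genes passed and 15.6% were higher in the ED. No fold is given for MEG9, which was at 0 in 4 of the 8 IVV membranes and was tested through the discs. ASCL2 is a transcription factor of the trophoblast, and its log2 difference was -0.78 with a standard error of 0.24 (adjusted p = 0.0276). In IVP embryos 0 of the 24 passed with edgeR, DESeq2 or limma voom, with 5 at an unadjusted p under 0.05, where 4.83% of all genes passed with edgeR. MEST was at 0.09 with a standard error of 0.51 there, but the difference between procedures for MEST, at -2.32, did not pass (adjusted p = 0.119). It passed with DESeq2 (-2.38, adjusted p = 0.0192), with no filter (-2.27, adjusted p = 0.0309) and without VE19 (-2.70, adjusted p = 0.0231).

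The relation of ED and EEM across embryos was computed for the 8 IVV embryos, by an exact permutation test over 40320 pairings, two-sided, with 9 relations. For H19 Pearson's r of log2 CPM was 0.962 (exact permutation p = 0.00241, adjusted p = 0.0217) and Spearman's rho was 0.810 (exact permutation p = 0.0218, adjusted p = 0.196). The rank relation did not pass after adjustment. Without VE19 and VE4, the 2 embryos farthest from the median in the ED, r was 0.649. VE19 held H19 near the floor in both tissues, and VE4 had the highest level in the EEM. None of the other 8 relations passed, with r from 0.0922 for PHLDA2 to 0.804 for CDKN1C, and r of CDKN1C was -0.085 without VE19 and VE4. The r of MEG3 was 0.346 and is given without a test. IVP had 5 such embryos, too few for this relation.

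**Figure D5:**
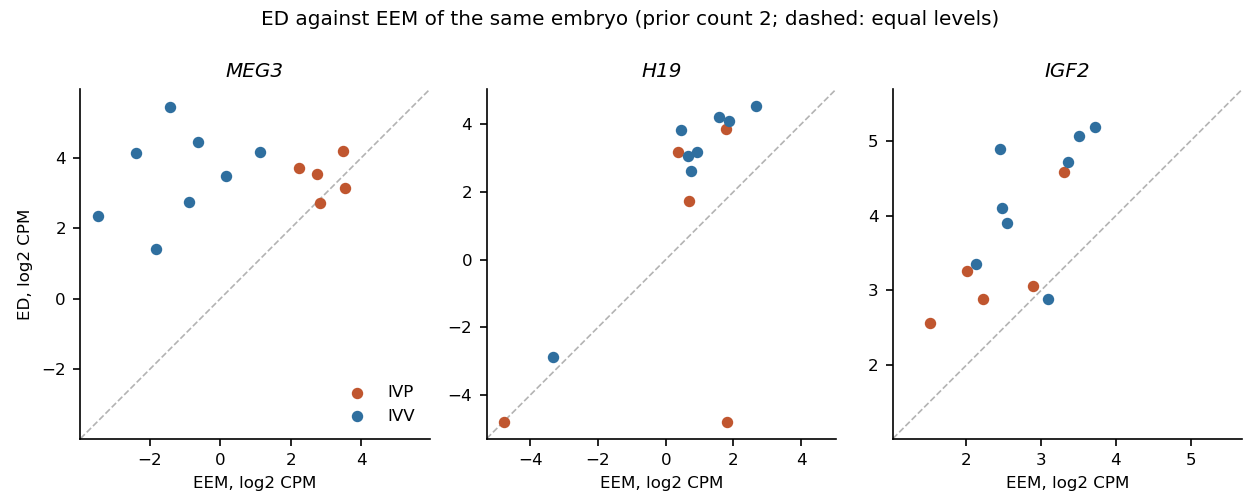
Level in the ED against level in the EEM of the same embryo for MEG3, H19 and IGF2, as log2 CPM with a prior count of 2; each point is 1 of 13 embryos (IVP orange, IVV blue) and the dashed line marks equal levels. For MEG3 the 8 IVV embryos lie far above the line and the 5 IVP embryos near it, and for H19 the embryos VE19 and IVPF14 lie at the bottom in both tissues and IVPF13 in the ED alone.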

How the data were processed

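RNA was poly(A)-selected, made into non-stranded libraries and sequenced in pairs. The authors filtered reads with SOAPnuke, mapped them onto ARS-UCD1.3 by STAR 2.7.0b and assigned them to genes using featureCounts of Subread 2.0.3; the submitters' processing notes also name FastQC 0.11.9 and Trimmomatic. The deposited values are raw counts for 35092 Entrez identifiers. Of their entries, 15257 were 1, 19289 were 2, 13344 were 3 and 13852 were 4, so even values were the more frequent, and halved counts were tried in case mates were counted singly. Symbols were taken from RefSeq (ARS-UCD2.0), whose build differs, so its positions served only for the order of genes around MEG3 and none is printed.

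All genes were fitted with edgeR 4.0.16 in R 4.3.3 (TMM, filterByExpr with at least 10 counts, quasi-likelihood test, Benjamini-Hochberg adjustment over all genes tested at 0.05). Each tissue was fitted with 1 surrogate variable (sva 3.50.0), since the study adjusted for morphology, which the labels do not give. Tissues were compared in 26 libraries with embryo, taken from the titles, as a block. A standard error is the log2 fold change over the root of F. CPM on the log2 scale used a prior count of 2. Alternatives used DESeq2 1.42.0, limma 3.58.1 (voom), other filters and scaling, title letters and prefixes as batch hints, and each embryo left out. The scripts were tested on simulated data. Libraries of a group come from separate embryos, those of IVV from 2 donor cows and those of IVP from slaughterhouse oocytes carried by 2 recipients, so p-values measure the spread between these embryos. Printed intervals are 2 standard errors each way from the same fit, and the floor of 3 counts for a count of 0 covers counting error only. MEG3 and the other members, the gene lists and the tests were chosen with earlier results of these data known. Named are all 10 members, the genes of the wider list that passed in the ED, the EEM or the interaction, the 5 symbols most like MEG3 in each tissue, and, chosen after their values were seen, genes given as examples of a count, markers and neighbors of MEG3. KCNQ1OT1, MIMT1 and HYMAI had no matching symbol and were not analysed here.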

Additional observations from a re-analysis of the deposited data

Results flagged for a closer look

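Among 40 groups of 1 gene in 1 tissue and procedure, 7 had a library that lay apart from the rest by Dixon's criterion, where chance flags about 1 in 20. All 7 were low values on the log2 CPM scale. H19 was at -2.87 in the ED and -3.32 in the EEM of VE19, and at -4.78 in the EEM of IVPF14. CDKN1C was at 0.71 in the ED and 0.94 in the EEM of VE19. IGF2R was at 6.02 in the EEM of IVP11, and PLAGL1 at -3.57 in the ED of IVP14, from 3 counts. Both tissues of VE19 were therefore low for H19 and for CDKN1C. The IGF2 level of VE19 was the lowest of the IVV group in the ED (364 counts) and within the range of the group in the EEM (399 counts).

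The difference between ED and EEM was not the same in IVP and IVV embryos for MEG8 (-4.71 on the log2 scale, IVP minus IVV) and for NDN (-2.06), by the interaction test of edgeR (adjusted p = 0.00137 and 0.0377). Neither passed without the embryos titled IVP but not IVPF (adjusted p = 0.0761 and 0.332). NDN also missed the threshold without the embryos titled IVPF (adjusted p = 0.204) and in 9 of the 13 fits that left out 1 embryo, IVP10, IVP11, IVP14, IVPF14, VE26, VE28, VE29, VE4 or VE5 (adjusted p from 0.0524 to 0.111).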

How the results depend on the processing

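The number of the 9 genes called in the ED was 2. It was 1 with no surrogate variable, with 2, with limma voom, with at least 10 counts in every library, with halved counts and without the embryos titled IVP but not IVPF (an alternative chosen after seeing the data), 0 with the title letter as a term and without the embryos titled IVPF, and 0 to 3 when single embryos were left out. In the EEM it was 0, and 1 with DESeq2. Between tissues it was 4 in IVV (2 with at least 10 counts in every library, 4 to 5 with single embryos left out) and 1 in IVP (2 with DESeq2, with no filter and without IVPF, 1 to 2 with single embryos left out). In the interaction it was 0, and 1 (H19, from 2 IVP discs at 0 counts) without the embryos titled IVP but not IVPF. The tissues were paired by embryo. Without the replicate block the IVV tissue difference of H19 was 2.32 (adjusted p = 0.0629), and MEG8 in IVP (0.034) and the interactions of IGF2R (0.0075) and PEG10 (-0.0046) changed sign near 0. Other log2 values that changed sign were CDKN1C with limma voom (-0.059 in the ED, -0.33 in the EEM), H19 in the EEM with 2 surrogate variables (0.18) and the title letter (0.20), and the interactions of PEG10 with at least 10 counts in every library (-0.0041) and of IGF2R without IVPF (0.11). Without the embryos titled IVP but not IVPF, which leaves 2 IVP embryos with both tissues, CDKN1C in the ED was -0.53, the IVP tissue differences were 1.66 for DLK1, -9.55 for H19 (from the same discs at 0 counts and 1 EEM library with 159, so no measured fold), -0.13 for IGF2R, -0.066 for PEG3, 0.59 for PLAGL1, 0.15 for MEG8 and -0.15 for MEST, and the interactions were -0.19 for PEG3, -0.063 for PEG10 and -0.46 for CDKN1C. The interaction of NDN was -1.91 there (adjusted p = 0.332) and -2.09 without IVPF (adjusted p = 0.204). With single embryos left out, signs changed for CDKN1C in the ED (-0.21 to 0.41) and the EEM (-0.47 to 0.60), H19 in the EEM (-0.56 to 0.17), and MEG3 in the ED (-0.71 to 0.18). The same was true of the IVP tissue differences of DLK1 (-0.96 to 0.50), IGF2R (-0.082 to 0.10), PEG3 (-0.10 to 0.41), CDKN1C (-0.94 to 0.084), PLAGL1 (-0.41 to 0.29), MEG8 (-0.23 to 0.11) and MEST (-0.16 to 0.41), and of the interactions of IGF2R (-0.17 to 0.046), PEG3 (-0.23 to 0.28), PEG10 (-0.27 to 0.29) and CDKN1C (-0.36 to 0.67). The cause of these changes was not tested. Over all genes, calls in the ED were 998 (240 to 1759 where they moved by over 1.5 times), in the EEM 561 (96 to 1181), between tissues in IVV 3711 (1420, and 2268 without the block) and in IVP 810 (194 to 473), and in the interaction 172 (11 to 435). DLK1, RTL1, DIO3, MEG9 and PLAGL1 had few counts per library, which limits the precision of their values.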
